A study of Rattus norvegicus with 9 samples.

Results

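Contusion of the rat spinal cord at thoracic segment T9 was examined on day 3 by RNA sequencing, comparing all measured genes between injured cords given saline and sham-operated cords. The injured group, SCI_Veh, had 3 libraries from spinal cord of rats with the WT genotype that received a weight impact at T9 and normal saline. The sham group had 3 libraries from spinal cord of rats with the same genotype that had a sham operation. A further 3 libraries from injured rats given α-lipoic acid (SCI_ALA) entered the model only to estimate the spread between libraries. Strain, sex and age are not given in the sources used here, nor is the length of cord taken or whether each library came from a separate animal, so p-values measure the spread between libraries, which may in part be technical. Genes were members when they had at least 10 counts in at least 3 of the 9 libraries, which 16760 of the 36051 genes in the table did. Of the 19291 others, 11871 had 0 counts in all 9 libraries.

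A contusion kills neurons and oligodendrocytes at the impact site, opens the blood-spinal cord barrier and fills the lesion with blood-borne leukocytes. During the first days resident microglia and incoming monocytes divide and take up myelin debris, which brings a large load of cholesterol and glycolipids into their lysosomes, while astrocytes and stromal cells around the lesion begin to divide and change shape. In RNA from whole tissue, fewer cells of a type and less RNA per cell cannot be told apart, and this holds for every value given here.

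The libraries held 14352862 to 15104944 counts, at similar depth in both groups. Position-specific genes, chosen after their values were seen, matched tissue behind the forebrain and do not show the segment. The forebrain gene Emx1 had 0, 0 and 2 counts in SCI_Veh and 0 in each sham library. Hoxc10, a gene of the posterior body axis, had 133, 100 and 68 counts in SCI_Veh and 339, 267 and 282 counts in sham. Among cell type markers, those of microglia and macrophages (5 of 5 called higher) summed to 952 to 1122 CPM (counts scaled to library size with TMM factors) in SCI_Veh and 217 to 340 CPM in sham. Neuronal markers (6 of 6 lower) summed to 1453 to 2057 CPM in SCI_Veh and 3922 to 6539 CPM in sham, and oligodendrocyte markers (4 of 5 lower) to 18476 to 30471 CPM in SCI_Veh and 46284 to 79850 CPM in sham. B cell markers were near 0 in both groups, with Cd79a at 0 in all 6 libraries, and neutrophil markers (none of 5 called) ranged from 54.4 to 167 CPM in SCI_Veh and from 55.8 to 598 CPM in sham. The library sham 2 stood apart from the other shams in its TMM factor, 0.8627 against 1.011 and 1.043, and results that rest on it are given without it.

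A large share of the transcriptome differed between injured and sham cords, about evenly in both directions under TMM scaling. By edgeR's quasi-likelihood test, 6341 of 16760 genes (37.8%) had a Benjamini-Hochberg adjusted p below 0.05, of which 3252 (19.4%) were higher and 3089 (18.4%) were lower in SCI_Veh. Without an adjustment, 7874 genes had a p below 0.05. The 3 SCI_Veh libraries were all above the 3 sham libraries for 4317 genes and all below for 3998. The median log2 change was 1.19 among genes higher, -1.17 among genes lower and 0.003 over all tested genes. TMM factors assume that most genes do not change, so the even split and the median over all genes follow in part from the scaling. With library totals in place of TMM factors, 3550 genes were higher and 2537 lower, and the median over all genes was 0.093. Large changes were mostly rises: 379 genes were at least 8-fold higher and 100 at least 8-fold lower, and beyond 32-fold there were 90 genes higher and 9 lower. These counts use fitted folds. They include the genes at 0 counts in either group that are described below, whose fitted folds depend on the prior count. Among unannotated transcripts, 140 of 1238 were higher and 232 were lower, against 3016 and 2791 of 14869 protein-coding genes. On the mitochondrial chromosome, 14 of 22 tested genes were lower and 0 higher, and the count lower was 10 without sham 2 and likewise without SCI_Veh 2 or SCI_Veh 3. Leaving out 1 library at a time kept 2268 of the genes higher (69.7%) and 1931 of the genes lower (62.5%) called in all 6 such fits.

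**Figure D1:**
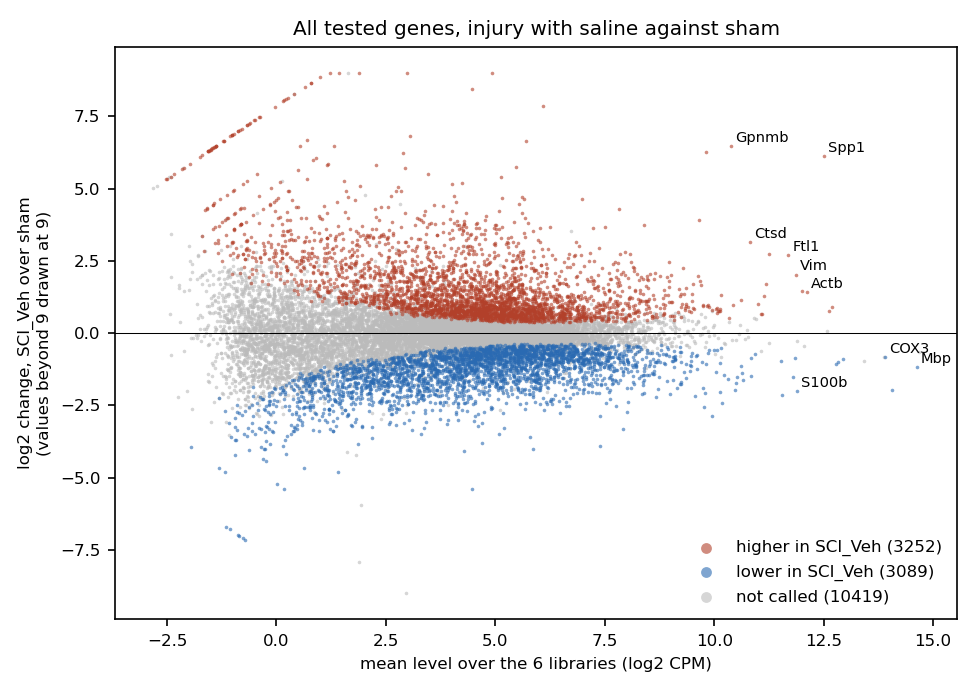
Log2 change of every tested gene (SCI_Veh over sham, vertical axis) against its mean level over the 6 libraries (log2 CPM, horizontal axis), with 3252 genes called higher in red, 3089 called lower in blue and the rest in grey. Points on slanting lines at the upper left are genes at 0 or near 0 counts in sham, whose fitted change depends on the prior count, and the most abundant genes at the far right (Mbp and COX3 are named) lie below 0.

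Genes called higher took 33.6%, 36.0% and 32.7% of CPM in the SCI_Veh libraries, against 13.7%, 13% and 14.2% in sham. Genes called lower took 20.5%, 17.6% and 20.8% in SCI_Veh, against 41.3%, 40.5% and 39.1% in sham. Both sets were called from these same libraries, so the direction of either contrast was fixed by the choice, and only its size is informative. Among called genes whose groups did not overlap, the 12 with the largest gain held 26.2% of the CPM gained by genes called higher. The 12 with the largest loss held 35.2% of the CPM lost by genes called lower, so most of either lay in other called genes. Counts were also spread over more genes in SCI_Veh. The 10 most abundant genes took 11.1%, 10.9% and 11.6% of counts in SCI_Veh and 15.9%, 20.7% and 15.9% in sham. The effective number of genes, the exponential of the Shannon entropy, was 3199, 3195 and 3130 in SCI_Veh and 2596, 1923 and 2772 in sham. Neither measure overlapped between groups, but the size of the difference in effective number rested on sham 2: it was 745 with that library and 491 without it. The exact permutation test (two-sided) gave p = 0.1 for each, and with 3 libraries a group it can go no lower. With mitochondrial and hemoglobin genes left out the groups overlapped, and the difference in effective number was 376. The number of genes with at least 10 counts was 15890, 15853 and 15965 in SCI_Veh and 15840, 15703 and 16057 in sham, a difference within the spread (exact permutation p = 0.8).

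Among the 12 genes with the largest gain, Spp1 encodes osteopontin, a secreted phosphoprotein of activated macrophages. It had 12750, 11809 and 9878 CPM in SCI_Veh, against 95.2, 203 and 195 CPM in sham, a log2 change of 6.13 ± 0.36 (SE; adjusted p = 8.33e-07). Gpnmb, a membrane glycoprotein of lipid-laden macrophages, had 2564, 2914 and 2390 CPM in SCI_Veh, against 32.8, 22.6 and 34.0 CPM in sham, an 88.0-fold difference with the smallest adjusted p among the named genes (9.93e-08). In both genes the groups were far apart relative to the spread inside either. Ftl1, the light chain of the iron store ferritin, averaged 5722 ± 858 CPM in SCI_Veh and 887 ± 250 CPM in sham (SD, n = 3 each). Per length it reached 10191 FPKM in SCI_Veh, above the 7425 FPKM of Spp1. The lysosomal proteases Ctsb and Ctsd were 6.71-fold and 8.90-fold higher, the intermediate filament gene Vim 4.09-fold, β-actin (Actb) 2.69-fold, the lipid carrier Apoe 2.73-fold and lysozyme (Lyz2) 3.24-fold. The elongation factor Eef1a1 was 1.89-fold and the ribosomal stalk protein Rplp0 2.45-fold higher. The rise of thymosin β4 (Tmsb4x, 1.72-fold, adjusted p = 0.0453) was not called without any single library other than sham 2, where the adjusted p reached 0.126 at most.

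Among the 12 genes with the largest loss, Mbp, which compacts the myelin sheath, had 19837, 12351 and 14178 CPM in SCI_Veh, against 42764, 38735 and 23485 CPM in sham. Its log2 change was -1.18 ± 0.30 (adjusted p = 0.00849). The desaturase Scd2, which makes monounsaturated fatty acids for myelin, was 2.87-fold lower. The calcium-binding S100b was 3.97-fold lower, the prostaglandin synthase Ptgds 4.44-fold lower and the oligodendrocyte tubulin Tubb4a 2.78-fold lower. The protease inhibitor Cst3 was also among them, a call lost without SCI_Veh 2, SCI_Veh 3 or sham 2 (adjusted p up to 0.0856). The mitochondrial transcripts COX3, ND2, ND1, CYTB and ND5 were 1.78-fold to 2.09-fold lower. COX3 and CYTB were not called without sham 2, the sham library with the highest mitochondrial levels, nor without any single SCI_Veh library, where their adjusted p reached 0.119 and 0.113 at most.

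**Figure D2:**
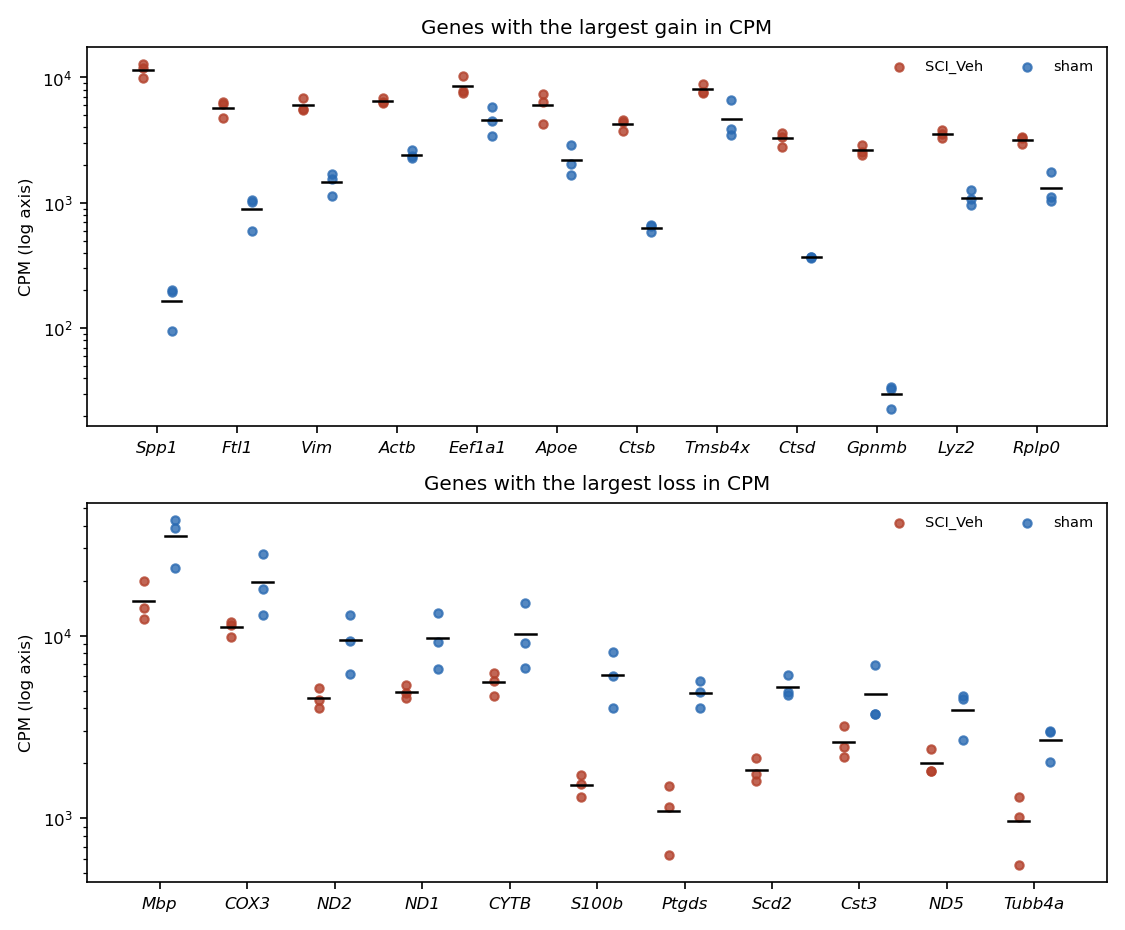
CPM in each library (log axis) for the 12 genes with the largest gain (upper panel) and for those reported here among the 12 with the largest loss (lower panel), SCI_Veh points left in red, sham points right in blue, black lines at group means. The genes were picked among called genes whose 3 SCI_Veh and 3 sham libraries do not overlap, so that separation follows from the choice. Spp1 and Gpnmb show the widest separation.

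Some genes had no count at all in sham. There were 26 genes with 0 counts in the 3 sham libraries and at least 10 counts in every SCI_Veh library, and for these a fold is given as a bound against 3 counts over the sham group. Serpina3n, a secreted inhibitor of serine proteases that reactive astrocytes make, had 347, 964 and 1393 counts in SCI_Veh and 0 in each sham library, which is at least 908-fold higher. Ucn2, a peptide of the corticotropin-releasing hormone family, had 163, 87 and 85 counts in SCI_Veh and was at least 113-fold higher. Sprr1a, a gene of axon regrowth in peripheral neurons, had 40, 50 and 151 counts and was at least 81.0-fold higher, and the chemokine receptor Cxcr1 had 72, 74 and 65 counts and was at least 70.9-fold higher. Cd300c2 was uneven, with 42, 575 and 95 counts, and its call was lost without sham 2 (adjusted p = 0.0510). The others included the metalloprotease Mmp7 (130, 41 and 11 counts), the growth factor Gdf3 (23, 34 and 42 counts), the antimicrobial lectin Reg3g (10, 16 and 18 counts) and the GABA receptor subunit Gabrr2 (34, 38 and 33 counts). In the opposite direction, 3 transcripts without a gene annotation had 10 to 24 counts in each sham library and 0 in every SCI_Veh library. Their folds of at least 12.6 to at least 14.9 rest on few counts.

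Kinesins that build and run the mitotic spindle were higher without exception, 13 of 13 tested, with a median log2 change of 3.16 against 0.003 over all tested genes. Kinesins and dynein subunits that carry cargo along axons and dendrites had 0 of 26 higher and 7 lower (26.9%, against 18.4% of all tested genes), with a median of -0.30, and the other members were not called. Kif23, a component of the central spindle needed for the last step of cell division, had 27.2, 24.7 and 26.8 CPM in SCI_Veh, against 1.97, 1.98 and 1.6 CPM in sham. The groups were tightly clustered and 14.2-fold apart (log2 change 3.82 ± 0.20, adjusted p = 6.08e-07). Cenpe, which links kinetochores to spindle microtubules, had 35.5, 40.6 and 32.5 CPM in SCI_Veh and 4.13, 3.40 and 4.20 CPM in sham, and the chromosome motor Kif22 had 58.3, 53.5 and 59.4 CPM in SCI_Veh and 6.42, 5.54 and 8.72 CPM in sham. The smallest rise in the group was 2.57 on the log2 scale, in Kif18a. In each fit without 1 library all 13 remained called.

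The 250 bases before the Kif23 start site are shown because they hold both letter patterns that recur upstream of genes expressed in G2 and mitosis. They lie at chr8:71320585-71320834 on the minus strand of GRCr8 (RefSeq), a newer build than the Rnor_6.0 of the count table. Capitals mark a CCAAT box read on the other strand, which begins at position -88 from the start site, and a cell cycle homology region (TTTGAA), which begins at -79.
Kif23: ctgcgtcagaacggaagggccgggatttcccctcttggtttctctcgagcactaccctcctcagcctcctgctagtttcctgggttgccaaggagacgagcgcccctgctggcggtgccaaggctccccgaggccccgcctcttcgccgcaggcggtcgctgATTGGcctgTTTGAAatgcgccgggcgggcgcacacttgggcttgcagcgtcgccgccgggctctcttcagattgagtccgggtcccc
A RefSeq window of 300 bases, 250 before and 50 after the start site, was matched to 11407 of the tested genes by symbol, 346 of them through a synonym; where RefSeq lists several starts for a gene, the one listed first was used. Shares of windows with each of 10 motifs, searched on both strands, were computed for the 26 lists, and the motifs described here were chosen from these 260 shares after the values were seen. Among 12 mitotic kinesins with a window, 66.7% held CCAAT and 50% held TTTGAA, against 37.4% and 11.8% of all tested genes with a window. Both were present in 5 of the 12 (Kif22, Kifc1, Kif4a, Kif23 and Kif20b), or 41.7%, against 4.82% of all. A match of letters is a description and does not show binding.

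Among transport motors, the dynein intermediate chain Dync1i1, a cargo adaptor subunit enriched in neurons, had 28.8, 23.6 and 42.0 CPM in SCI_Veh, against 98.8, 117 and 126 CPM in sham. It was 3.62-fold lower with no overlap (log2 change -1.86 ± 0.24, adjusted p = 0.000121). The neuronal kinesin heavy chains Kif5a and Kif5c were 2.37-fold and 1.83-fold lower, and their light chain partner Klc2 was 1.91-fold lower. Kif5b, the heavy chain that most cell types make, was not called, with a log2 change of -0.19, nor was the dynein heavy chain Dync1h1, at 0.09. Neuronal markers, as given above, were lower in the same libraries, and their part in these values was not tested.

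Tubulins are the subunits of the microtubules themselves. Of 16 tested, 4 were higher (25%) and 5 lower (31.2%), shares near the 19.4% and 18.4% of all tested genes, and the median log2 change of 0.04 changed sign among the alternative settings (-0.01 to 0.14). Tubb6, a β-tubulin of non-neuronal cells, had 215, 281 and 253 CPM in SCI_Veh, against 31.0, 30.3 and 48.3 CPM in sham, 6.82-fold higher (adjusted p = 3.05e-06). Tuba1c was 2.87-fold and Tubb5 1.72-fold higher. In the opposite direction Tuba8 had 4.96, 3.47 and 2.63 CPM in SCI_Veh and 10.9, 20.9 and 17.8 CPM in sham, 4.48-fold lower, and Tuba4a, an α-tubulin of mature neurons, was 2.12-fold lower. Tubb3, the tubulin used to stain neurons, had 422, 332 and 474 CPM in SCI_Veh and 404, 444 and 447 CPM in sham. Those groups overlapped and the gene was not called (log2 change -0.08 ± 0.17, adjusted p = 0.761).

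**Figure D3:**
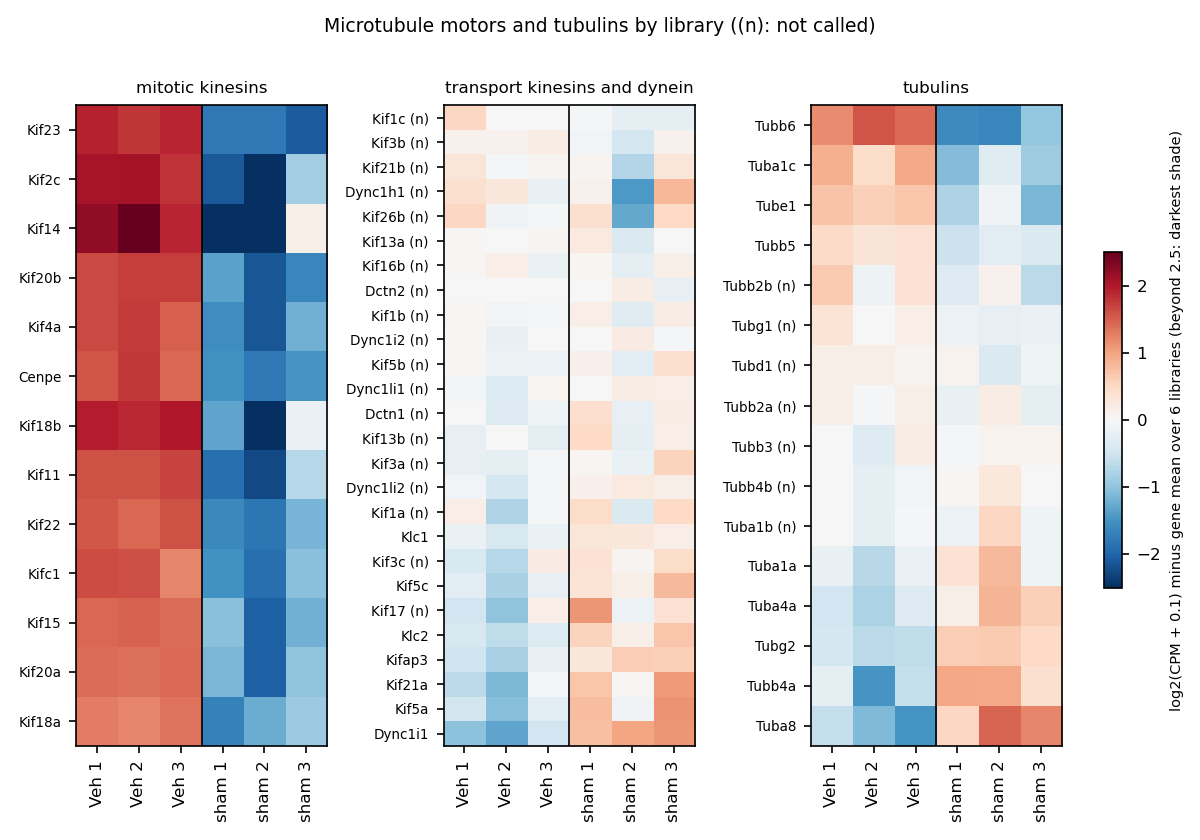
Level in each library of 13 mitotic kinesins, 26 transport motors and 16 tubulins, as log2(CPM + 0.1) minus the gene's mean over the 6 libraries, with SCI_Veh libraries left of the line and sham libraries right; genes marked (n) were not called. Mitotic kinesins are red in every SCI_Veh library, transport motors shade from pale at the top to blue in SCI_Veh at the bottom, and tubulins split between red at the top (Tubb6) and blue at the bottom (Tuba8).

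Genes of actin branching and filament turnover, which drive crawling and engulfment, were mostly higher. The count was 38 of 46 tested (82.6%, against 19.4% of all tested genes), with 1 lower and a median log2 change of 1.04. Capg, a macrophage protein that caps filament ends, had 307, 317 and 249 CPM in SCI_Veh, against 30.8, 38.4 and 43.7 CPM in sham, 7.73-fold higher (adjusted p = 1.2e-06). The tropomyosin Tpm4 had 382, 391 and 394 CPM in SCI_Veh and 86.8, 79.7 and 104 CPM in sham, and the leukocyte myosin Myo1f was 7.49-fold higher. Nckap1l, the blood-cell subunit of the WAVE complex that activates Arp2/3, was 3.97-fold higher, and Arpc1b, an Arp2/3 subunit, was 3.70-fold higher, while its paralog Arpc1a had a log2 change of 0.11 and was not called. The exception was the filament-severing gelsolin, Gsn, with 683, 490 and 630 CPM in SCI_Veh, against 1186, 1521 and 1815 CPM in sham, 2.51-fold lower without overlap. Oligodendrocytes make much gelsolin, and their marker sum was lower in the same libraries, as given above; its part in the Gsn value was not tested.

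In a list of DNA replication, DNA repair and chromatin genes of dividing cells, 41 of 44 were higher and none lower. The share higher was 93.2%, against 19.4% of all tested genes, and the median log2 change was 1.70. The replicative helicase is a ring of Mcm2 to Mcm7, and the 6 subunits rose together by log2 changes of 1.51 to 2.76. Mcm6 had 92.7, 81.7 and 84.3 CPM in SCI_Veh, against 14.8, 9.02 and 14.1 CPM in sham, 6.8-fold higher (adjusted p = 2.33e-06). Mcm4 was even within groups, with 60.5, 60.2 and 61.9 CPM in SCI_Veh and 17.6, 15.9 and 18.4 CPM in sham. The maintenance methylation factor Uhrf1 averaged 37.4 ± 5.55 CPM in SCI_Veh and 3.34 ± 2.43 CPM in sham. Prim1, Gins2 and Tipin were not called, with log2 changes of 0.14, 0.27 and 0.45.

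The Mcm6 promoter is shown for its E2F site (TTTNGCGC, N being any base), the pattern bound by the factors that open S phase. The 250 bases lie at chr13:42404353-42404602 on the minus strand of GRCr8. Capitals mark 2 overlapping matches, 1 on each strand, which begin at -139 and -135.
Mcm6: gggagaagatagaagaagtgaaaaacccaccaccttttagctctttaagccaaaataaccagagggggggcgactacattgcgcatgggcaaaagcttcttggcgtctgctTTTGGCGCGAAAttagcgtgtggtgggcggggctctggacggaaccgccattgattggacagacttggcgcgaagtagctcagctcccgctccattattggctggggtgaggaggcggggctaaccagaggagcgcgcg
Of 41 genes of this list with a window, 15 held the E2F site (36.6%), against 2.08% of all tested genes with a window, and 14 of the 15 were called higher; among them were the helicase genes Mcm2, Mcm3, Mcm5, Mcm6 and Mcm7. CCAAT was present in 68.3% and TTTGAA in 22% of these windows.

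Nucleotide synthesis had 17 of 27 tested genes higher (63%) and 2 lower (7.41%), against 19.4% and 18.4% of all tested genes. Steps that make deoxynucleotides were among the genes higher. Rrm2, the limiting subunit of ribonucleotide reductase, had 72.9, 65.8 and 67.5 CPM in SCI_Veh, against 3.08, 1.42 and 3.40 CPM in sham, 25.7-fold higher (adjusted p = 8.33e-07). Its partner Rrm1 was 3.25-fold higher, thymidine kinase Tk1 was 8.61-fold higher and thymidylate synthase Tyms 4.24-fold higher. Of the genes that build purines from simple precursors, Ppat and Impdh2 were called with log2 changes of 1.02 and 1.18, and Gart and Pfas were not, at 0.10 and 0.17. Cmpk2, an interferon-induced mitochondrial kinase, was 2.58-fold lower, a call lost without SCI_Veh 2 (adjusted p = 0.0522). The count of lower genes was 0 without SCI_Veh 2 and 1 without SCI_Veh 1 or sham 2.

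Serine and folate metabolism, which feeds carbon into nucleotides, had 6 of 23 genes higher (26.1%) and 8 lower (34.8%), against 19.4% and 18.4% of all tested genes. The cytosolic serine hydroxymethyltransferase Shmt1 had 17.1, 20.3 and 21.6 CPM in SCI_Veh, against 3.80, 3.16 and 3.60 CPM in sham, and its mitochondrial counterpart Shmt2 was 1.57-fold higher. The lower genes include those through which astrocytes make serine and handle folate. The serine synthesis enzymes Phgdh and Psat1 were 2.01-fold and 2.42-fold lower, and the astrocyte folate dehydrogenase Aldh1l1 was 5.38-fold lower. Cbs, the first enzyme from homocysteine towards cysteine, had 7.86, 5.94 and 7.36 CPM in SCI_Veh, against 56.8, 49.7 and 32.7 CPM in sham, 6.57-fold lower. Aldh1l2, the mitochondrial paralog of Aldh1l1, was 6.06-fold higher in the same libraries. The count of higher genes was 3 without SCI_Veh 1, 4 without SCI_Veh 3 or sham 3 and 5 without SCI_Veh 2. Astrocyte markers were called lower in 4 of 5 cases, with sums of 5612 to 7823 CPM in SCI_Veh and 6504 to 9155 CPM in sham, and their part was not tested.

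In ribosome assembly, 20 of 39 tested genes were higher and 0 lower, a share of 51.3% against 19.4% of all tested genes. That count was 15 without SCI_Veh 1 or SCI_Veh 2 and 14 without SCI_Veh 3. Nop58, a core protein of the complexes that methylate ribosomal RNA, had 54.9, 58.5 and 64.5 CPM in SCI_Veh, against 26.2, 25.2 and 25.2 CPM in sham, 2.32-fold higher (adjusted p = 6.06e-05). Its methyltransferase partner fibrillarin (Fbl) was 2.07-fold higher, nucleophosmin (Npm1) 2.26-fold and nucleolin (Ncl) 1.63-fold. Of the genes that send proteins into the endoplasmic reticulum and on to the Golgi, 20 of 42 were higher (47.6%) and 0 lower. The count lower was 1 without sham 1 or sham 2 and 2 without sham 3. The count higher ranged from 16 without SCI_Veh 2 or SCI_Veh 3 to 24 without sham 2. The channel subunit Sec61a1 had 190, 195 and 175 CPM in SCI_Veh and 88.0, 65.8 and 82.2 CPM in sham, 2.37-fold higher, and the retrieval receptor Kdelr2 was 2.11-fold higher. Nuclear pore proteins, grouped by the stem Nup, had 13 of 22 higher and 0 lower, led by the scaffold members Nup205 (2.96-fold) and Nup93 (2.41-fold). Cytosolic ribosomal proteins of the large subunit (Rpl) had 26 of 46 higher and 0 lower. That count was 35 without sham 2 and 15 without either sham 1 or sham 3, and reads of these genes are shared with near-identical copies, so single members are uncertain. The stem Eef, which holds elongation factors of translation beside a kinase and methyltransferases that act on them, had 6 of 12 higher. Of these, Eef1a1, Eef1g, Eef1d and Eef2 are elongation factor genes, with log2 changes of 0.92, 0.97, 0.91 and 0.66, and Eef2k and Eef1akmt4 are a kinase and a methyltransferase, while Eef1a2, the form that neurons and muscle use in place of Eef1a1, was lower with a log2 change of -0.83.

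Of the 34 proteasome genes, 4 were higher (11.8%, against 19.4% of all tested genes) and 1 lower, and the count of higher genes was 8 with library totals in place of TMM factors. The regulatory ATPase Psmc5 was 2.02-fold lower and the activator Psme4 was 1.6-fold higher, and the count of higher genes ranged from 9 without sham 2 to 1 without sham 3, with 2 without SCI_Veh 1 or SCI_Veh 3. The count of lower genes was 3 without sham 1. Mitochondrial ribosomal proteins had 2 of 44 higher and 2 lower (0 lower without any single SCI_Veh library or sham 2; 1 higher without SCI_Veh 1, SCI_Veh 2 or sham 3), and a median log2 change of 0.00 that changed sign among the alternative settings (-0.11 to 0.16). Of 19 cytosolic tRNA synthetases, 5 were higher (26.3%, near the 19.4% of all tested genes) and 0 lower, led by Rars, which charges arginine, with 85.6, 84.8 and 89.4 CPM in SCI_Veh and 40.2, 46.6 and 44.2 CPM in sham. Without any single SCI_Veh library, or without sham 3, that count was 3.

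Synthesis of gangliosides and sphingolipids, the glycolipids of neuronal membranes and myelin, had 14 of 32 genes lower (43.8%) and 5 higher (15.6%). Over all tested genes these shares were 18.4% and 19.4%. Among the genes lower, Ugt8, which makes the galactolipid of myelin, had 420, 202 and 395 CPM in SCI_Veh, against 1826, 1382 and 1071 CPM in sham, 4.21-fold lower. Fa2h, which adds the 2-hydroxyl group to myelin fatty acids, was 5.18-fold lower, and Gal3st1, which turns the galactolipid into sulfatide, was 2.42-fold lower. Sptssb, a small subunit of the enzyme that starts sphingolipid synthesis, had 2.25, 2.53 and 2.03 CPM in SCI_Veh and 12, 21.6 and 24.1 CPM in sham, 8.44-fold lower. The ganglioside sialyltransferase St8sia1 and the GM2 synthase B4galnt1 were 4.55-fold and 2.25-fold lower. Against this, B4galt6, which makes lactosylceramide, had 74.8, 64.0 and 63.5 CPM in SCI_Veh and 33.0, 34.1 and 34.3 CPM in sham, and the sphingosine kinase Sphk1 was 2.70-fold higher. Without SCI_Veh 2 the count of lower genes was 9, and the count of higher genes was 3 without SCI_Veh 1, SCI_Veh 2 or sham 2.

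A list of lysosomal genes built around glycolipid breakdown had 14 of 26 higher (53.8%, against 19.4% of all tested genes). In the same list 0 were lower (1 lower without sham 2). The list also holds genes with other lysosomal work, among them Grn, Lipa, Cd63, Lamp1 and Mcoln1. The lysosomal cofactor progranulin (Grn) had 900, 915 and 723 CPM in SCI_Veh, against 193, 105 and 159 CPM in sham, 5.55-fold higher (adjusted p = 1.37e-05). The acid lipase Lipa, which frees cholesterol from its esters, was 3.26-fold higher, and the GM2 activator Gm2a 2.77-fold. Galc, which removes galactose from the myelin galactolipid that Ugt8 makes, had 42.3, 43.8 and 39.8 CPM in SCI_Veh, against 19.0, 14.3 and 16.4 CPM in sham, 2.53-fold higher without overlap. Not every lysosomal gene rose: Arsa, which removes the sulfate of sulfatide, had a log2 change of -0.50 and was not called, and Lamp1, a main membrane protein of the organelle, had -0.04. The palindrome TCACGTGA, a form of the E-box found near lysosomal genes, was present in 3 of the 17 windows of this list (Lamp1, Mcoln1 and Galc), against 1.6% of all tested genes with a window, and of the 3 only Galc was called.

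Peroxisome genes, which shorten very long fatty acids and start plasmalogen synthesis, had 7 of 27 lower and 1 higher. The share lower was 25.9%, near the 18.4% of all tested genes. Abcd2 and Abcd3, which load acyl chains into the organelle, were 3.60-fold and 1.99-fold lower. Abcd3 had 104, 91.6 and 83.7 CPM in SCI_Veh, against 206, 184 and 166 CPM in sham, with no overlap. Fatty acid oxidation genes had 5 of 34 higher and 5 lower, both below the share among all tested genes. Of the called members, 5 were ligases that activate fatty acids before use, and these moved both ways. Acsl3 had 67.4, 51.6 and 61.1 CPM in SCI_Veh and 230, 197 and 177 CPM in sham, 3.35-fold lower, Acsl6 was 4.70-fold lower and Acsl1 2.16-fold lower, whereas Acsl5 was 1.90-fold higher and Acsl4, which favours arachidonic acid, was 2-fold higher. Of the enzymes of the oxidation spiral itself, Acadm and Hadha were not called, with log2 changes of 0.12 and 0.22.

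Signalling downstream of immune receptors in blood cells was higher in 35 of 39 tested genes (89.7%, against 19.4% of all tested genes). The median log2 change was 1.84, and the count was 35 in every fit without 1 library. Fermt3, which switches on leukocyte integrins, had 80.4, 80.5 and 57.5 CPM in SCI_Veh, against 11.7, 11.6 and 10.6 CPM in sham, 6.46-fold higher (adjusted p = 1.4e-06). The adaptor Tyrobp, which carries signals of the phagocyte receptor Trem2, was 5.49-fold higher. The T cell kinases stood apart: Lck and Zap70 were not called, with log2 changes of 0.51 and -1.14. Elmo1, part of a complex that turns on Rac during engulfment and is also made by neurons, was 2.12-fold lower. The promoter of Vav1, an exchange factor for Rac in blood cells, is shown because it holds the site of PU.1, the master factor of the myeloid lineage. Vav1 itself had 44.1, 42.2 and 36.3 CPM in SCI_Veh and 7.21, 5.78 and 5.46 CPM in sham. The 250 bases lie at chr9:2248705-2248954 on the plus strand of GRCr8, and capitals mark the site (GAGGAAGT), which begins at -52.
Vav1: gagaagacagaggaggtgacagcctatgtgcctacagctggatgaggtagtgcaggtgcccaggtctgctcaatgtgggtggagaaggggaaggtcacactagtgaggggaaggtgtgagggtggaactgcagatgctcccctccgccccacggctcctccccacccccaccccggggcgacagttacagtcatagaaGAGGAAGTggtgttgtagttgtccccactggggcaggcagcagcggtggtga
The site was present in 6 of 30 windows in this list (20%), against 2.66% of all tested genes with a window. The windows with it were those of Cd53, Cd37, Inpp5d, Elmo1, Pik3cg and Vav1, so it was also in the window of the member that was lower.

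The plasminogen and clotting genes had 14 of 24 higher (58.3%, against 19.4% of all tested genes) and 0 lower. Plau, the urokinase that cuts plasminogen into the fibrin-dissolving enzyme plasmin, had 92.1, 60.7 and 52.2 CPM in SCI_Veh, against 2.43, 1.19 and 1.13 CPM in sham, 42.6-fold higher (adjusted p = 1.6e-06). Its receptor Plaur had 18.7, 24.5 and 17.0 CPM in SCI_Veh and 0.852, 1.50 and 2.26 CPM in sham, 13-fold higher. Annexin A2 (Anxa2) and its partner S100a10, which hold plasminogen on the cell surface, were 4.02-fold and 3.87-fold higher. The tissue-type activator Plat and plasminogen itself (Plg) were not called, with log2 changes of 0.51 and 0.09, and Plg was below 1 CPM in all 6 libraries. The count of higher genes was 9 without SCI_Veh 2. The Plaur promoter is shown for an AP-1 site, the pattern bound by Fos and Jun proteins. It lies at chr1:89181113-89181362 on the plus strand of GRCr8, and capitals mark the site (TGANTCA), which begins at -83.
Plaur: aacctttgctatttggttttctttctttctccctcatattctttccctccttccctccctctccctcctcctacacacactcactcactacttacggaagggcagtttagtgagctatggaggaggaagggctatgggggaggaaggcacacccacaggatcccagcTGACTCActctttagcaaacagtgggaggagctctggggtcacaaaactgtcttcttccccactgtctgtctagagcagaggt
AP-1 letters were present in 8 of 16 windows of the list (50%), against 5.30% of all tested genes with a window, and 6 of the 8 genes were called higher (Anxa2, Plaur, Procr, F5, Tfpi2 and Serpinb2). The calls of Procr, F5 and Tfpi2 were lost in some fits without 1 library. F5 lost it without SCI_Veh 2 or sham 1, Procr without SCI_Veh 2, SCI_Veh 3 or sham 1, and Tfpi2 without SCI_Veh 1, SCI_Veh 3, sham 1 or sham 3, with adjusted p up to 0.0634, 0.0824 and 0.0682.

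Regulators of transcription moved in both directions. Of 1053 tested genes that the table assigns to a transcription factor family, 176 were higher (16.7%) and 129 were lower (12.3%). Both shares were below the 19.4% and 18.4% of all tested genes. The assignment is the table's own and is loose in places, for it puts Necab3, a calcium-binding protein, in the E2F family. ETS factors, the family of PU.1, had 13 of 21 higher and 0 lower, though without SCI_Veh 2 the count was 8. Spi1, which encodes PU.1, had 95.4, 92.9 and 79.2 CPM in SCI_Veh, against 26.5, 24.7 and 20.5 CPM in sham, 3.73-fold higher (adjusted p = 7.52e-06), and Fli1 was 3.97-fold higher. The bZIP family had 20 of 49 higher and 4 lower (2 lower without SCI_Veh 2, SCI_Veh 3 or sham 1). Its member Atf3, an injury-induced factor in neurons and glia, had 72.4, 55.0 and 86.3 CPM in SCI_Veh, against 7.34, 7.20 and 7.26 CPM in sham, 9.79-fold higher, and Batf and the AP-1 subunit Fosl1 were 10.2-fold and 7.40-fold higher. Of the RHD family, which includes NF-κB and NFAT, 5 of 10 were higher (Nfatc1, Nfkb2, Relb, Nfkb1 and Rela, log2 changes of 1.19 to 0.54) and 1 was lower (Nfatc2, -1.24). The call of Relb was lost without SCI_Veh 2 or SCI_Veh 3 (adjusted p up to 0.0594). Of the E2F family, 5 of 10 were higher, and the largest changes were those of E2f7 and E2f8, repressors that close S phase, with log2 changes of 3.63 and 2.49. The largest family, zinc fingers of the C2H2 type, had 30 of 391 higher and 31 lower, shares of 7.67% and 7.93% that were below those of all tested genes. Without SCI_Veh 2 its count of higher genes was 18.

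In a list of 34 transcription factors of myeloid cells, 25 were higher (73.5%, against 19.4% of all tested genes) and 0 lower. Among fits without 1 library the count higher ranged from 18 without SCI_Veh 2 to 23 without SCI_Veh 3. Tfec, a relative of the lysosome regulators Tfeb and Mitf, had 9.53, 13.9 and 11.4 CPM in SCI_Veh, against 0.328, 1.27 and 1.53 CPM in sham, 11.1-fold higher. Tfeb and Mitf were not called, with log2 changes of 0.12 and 0.04. The macrophage factors Cebpa and Irf8 were 6.25-fold and 4.89-fold higher. Sall1, which keeps the identity of resident microglia, was not called, with a log2 change of -0.34. Irf7, an interferon-induced factor, had 78.4, 40.6 and 72.5 CPM in SCI_Veh, against 435, 141 and 230 CPM in sham. It was 4.21-fold lower, a call lost without any single library other than sham 2, with adjusted p up to 0.0970.

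Of 83 homeobox genes tested, 27 were lower (32.5%) and 6 higher (7.23%), against 18.4% and 19.4% of all tested genes. Hox genes, the homeobox genes that set position along the body axis, had 13 of 19 lower and 0 higher, with a median log2 change of -1.10. This subset was chosen after its values were seen. Hoxb8 had 23.7, 20.5 and 23.4 CPM in SCI_Veh, against 125, 76.8 and 59.9 CPM in sham, 3.87-fold lower (adjusted p = 0.000105). Hoxb5, Hoxc10 and Hoxd9 had log2 changes of -1.69 ± 0.21, -1.65 ± 0.26 and -1.68 ± 0.34, and Hoxb2, Hoxb3 and Hoxc5 were not called, with -0.25, -0.26 and -0.23. The count of Hox genes lower ranged from 9 without SCI_Veh 3 to 15 without sham 3 and was 10 with library totals in place of TMM factors. A list of transcription factors of neurons and macroglia had 16 of 42 lower and 3 higher (1 higher without SCI_Veh 1, SCI_Veh 3, sham 2 or sham 3). Among the lower ones were factors that specify dorsal interneurons. Lbx1 had 1.16, 0.867 and 1.55 CPM in SCI_Veh and 5.51, 4.75 and 5.86 CPM in sham, and Pax2 and Tlx3 were 5.42-fold and 5.91-fold lower. The oligodendrocyte factors Olig2, Olig1, Sox10 and Myrf were not called. Olig2 had 75.6, 52.3 and 56.5 CPM in SCI_Veh and 62.9, 43.7 and 54.1 CPM in sham, and Olig1, Sox10 and Myrf had overlapping groups with log2 changes of -0.16, -0.15 and -0.11. Myt1, a factor of early oligodendrocyte precursors, was 2.18-fold higher, and St18, a relative of Myt1 in the same zinc finger group, was 3.81-fold lower.

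**Figure D4:**
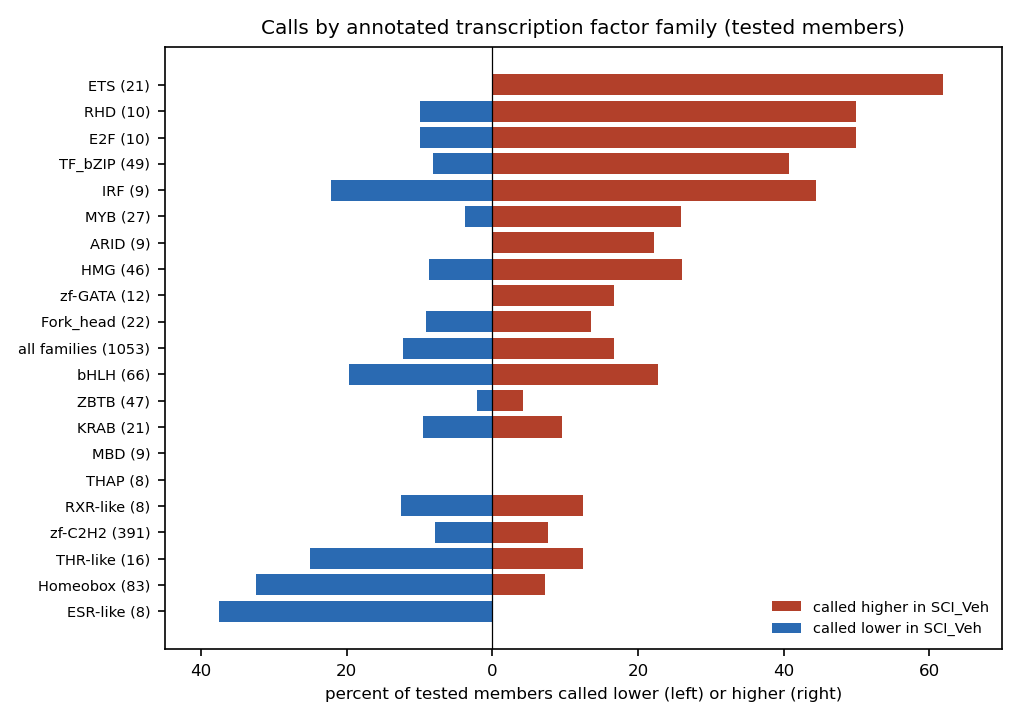
Percent of tested members called higher (right, red) and lower (left, blue) in SCI_Veh for each annotated family, with the number tested in brackets. ETS (13 of 21) is at the top with higher calls, Homeobox (27 of 83) is near the bottom with lower calls, and zf-C2H2 (391 tested) has few calls in either direction. ESR-like receptors, at the foot with 3 of 8 lower, had 1 lower without SCI_Veh 3 or sham 1.

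Neuronal signalling genes of the calcium and cyclic nucleotide pathways, kinases among them, had 25 of 43 lower (58.1%) and 2 higher (4.65%). Over all tested genes these shares were 18.4% and 19.4%. The median log2 change of the list was -0.98. Ppp1r1b, the dopamine-regulated phosphatase inhibitor DARPP-32, had 11.7, 6.2 and 7.63 CPM in SCI_Veh, against 112, 121 and 71.9 CPM in sham, 11.9-fold lower (adjusted p = 3.05e-06). Camkk1, which activates other calcium-dependent kinases, was 3.56-fold lower, and the kinase inhibitor Camk2n1 was 3.20-fold lower. Camk2a had 4.38, 2.33 and 3.24 CPM in SCI_Veh and 13.5, 9.97 and 10.9 CPM in sham. Of the forms that many tissues share, Camk2d (log2 change 0.23) and Prkar1a (-0.24) were not called. The 2 members higher, Prkar2a and Rgs14, were not firm: the count was 0 without SCI_Veh 3 or sham 1 and 1 without SCI_Veh 1 or SCI_Veh 2.

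Factors that set neuron-type splicing had 12 of 24 lower (50%) and 2 higher (8.33%), against 18.4% and 19.4% of all tested genes. The higher ones were Ptbp1 and Celf2. Ptbp1 represses neuronal exons in other cells, and its paralog Ptbp2 takes its place in neurons. Ptbp1 had 172, 177 and 155 CPM in SCI_Veh, against 75.3, 60 and 71.8 CPM in sham, 2.43-fold higher, while Ptbp2 had 25.4, 20 and 29.3 CPM in SCI_Veh and 44.7, 47.9 and 38.9 CPM in sham, 1.76-fold lower. Neither gene overlapped between groups. The neuronal RNA-binding proteins Elavl2 and Elavl4 were 3.63-fold and 2.81-fold lower, and the neuronal splicing regulators Rbfox1 and Nova1 were 2.63-fold and 2.32-fold lower. Celf2 was 1.70-fold higher, a call lost without SCI_Veh 2 (adjusted p = 0.0507).

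Genes were also grouped by the stem of their symbol. For comparison, 18.4% of all tested genes were lower and 19.4% were higher. Of 136 stems with at least 12 tested genes, the largest shares lower were in synaptotagmins (Syt, 9 of 15), the calcium sensors of vesicle release, inward rectifier potassium channels (Kcnj, 7 of 13), carbonic anhydrases (Car, 7 of 14), Kctd (9 of 18), Mapk (9 of 18) and cadherins (Cdh, 10 of 21). Syt1, the sensor of fast transmitter release, had 18.2, 16.8 and 20.2 CPM in SCI_Veh, against 76.7, 61.1 and 79.7 CPM in sham, 3.94-fold lower, while Syt4 was higher with a log2 change of 0.69, a call lost without SCI_Veh 3 or sham 1 (adjusted p up to 0.0662). Kcnj16, an acid-sensing channel subunit of glia, was 2.67-fold lower. Car14 was 4.35-fold and Car2 2.93-fold lower, and Cdh8 had 2, 1.53 and 4.12 CPM in SCI_Veh and 13.6, 13.1 and 12.9 CPM in sham. The Mapk stem held neuronal Mapk10 (JNK3, 2.62-fold lower) beside Mapk13 (a p38 form), which was higher with a log2 change of 3.71. Counts in Kcnj, Kctd and Mapk depended on single libraries. The Kcnj count was 4 without SCI_Veh 2 or sham 3, the Kctd count 5 without SCI_Veh 1, and the Mapk count 5 without SCI_Veh 2.

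Surface proteases and chemokines had the largest shares higher among families of membrane and secreted proteins in this grouping. In the Adam family, which sheds cell surface proteins, 7 of 12 were higher (58.3%) and 3 lower (25%), against 19.4% and 18.4% of all tested genes. The count of higher members was 4 without SCI_Veh 2. The count of lower members was 1 without SCI_Veh 2 or sham 3. Adam8, a protease of leukocytes, had 35.3, 43.4 and 31.4 CPM in SCI_Veh, against 1.18, 0.158 and 1.53 CPM in sham, 37.0-fold higher, whereas the neuronal Adam11, which lacks protease activity, was lower with a log2 change of -1.70. Among Ccl chemokines, 7 of 13 were higher (53.8%) and 2 lower (15.4%). Their count higher was 5 without SCI_Veh 2, SCI_Veh 3 or sham 2. The monocyte attractant Ccl2 had 90.5, 76.5 and 110 CPM in SCI_Veh, against 4.65, 6.33 and 4.46 CPM in sham, 18-fold higher, and Ccl19, a chemokine that draws lymphocytes and dendritic cells, was 6.34-fold lower. Tetraspanins, which organise membrane patches, had 3 of 24 higher and 6 lower (25%, near the 18.4% of all tested genes; 5 higher without sham 1). Of these, Cd53 and Cd37 of leukocytes were 5.65-fold and 3.14-fold higher, and the lysosomal Cd63 was 3.48-fold higher. Tspan7 and Tspan2 of neurons and oligodendrocytes were 2.88-fold and 2.96-fold lower.

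Of 23 gap junction and claudin genes, 9 were lower (39.1%) and 3 higher (13%), against 18.4% and 19.4% of all tested genes. Gjb6, the connexin 30 of astrocytes, had 45.9, 61.0 and 29.8 CPM in SCI_Veh, against 124, 172 and 167 CPM in sham, 3.38-fold lower, and Gja1, the astrocyte connexin 43, was 1.95-fold lower. The oligodendrocyte connexin Gjb1 was 2.12-fold lower, and the neuronal connexin Gjd2 was 5.50-fold lower. Gja4, a connexin of arterial endothelium, had 13.1, 17.6 and 6.62 CPM in SCI_Veh and 3.67, 4.11 and 2.86 CPM in sham, 3.50-fold higher. Cldn10 was 6.51-fold lower, whereas the tight junction protein Ocln was 1.91-fold higher.

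Motile cilia genes, which in the cord belong to the ependymal lining of the central canal, had 9 of 32 lower (28.1%, against 18.4% of all tested genes) and 2 higher (1 higher without SCI_Veh 2, SCI_Veh 3, sham 1 or sham 2). The dynein heavy chain Dnah12 had 3.48, 2.67 and 4.8 CPM in SCI_Veh, against 12.8, 10.5 and 7.66 CPM in sham, 2.83-fold lower, and Drc1, which regulates the dynein motors, was also 2.83-fold lower. The count lower was 6 without SCI_Veh 1 or SCI_Veh 3 and 5 without SCI_Veh 2 or sham 2, so it was close to the share of all tested genes. Cfap44, with 1.87, 3.40 and 1.82 CPM in SCI_Veh and 0.131, 0.554 and 0.866 CPM in sham, was higher, a call lost without SCI_Veh 2 (adjusted p = 0.0774). Autophagy genes had 7 of 36 lower and 4 higher, close to and below the shares of all tested genes, and the count lower was 3 without SCI_Veh 1 and 4 without SCI_Veh 2 or sham 1. The count higher was 2 without any single SCI_Veh library or sham 1. The ubiquitin-like Gabarapl1, with 179, 147 and 185 CPM in SCI_Veh and 300, 359 and 282 CPM in sham, was 1.84-fold lower, and Atg7, the enzyme that activates this protein family, was 1.95-fold higher.

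**Figure D5:**
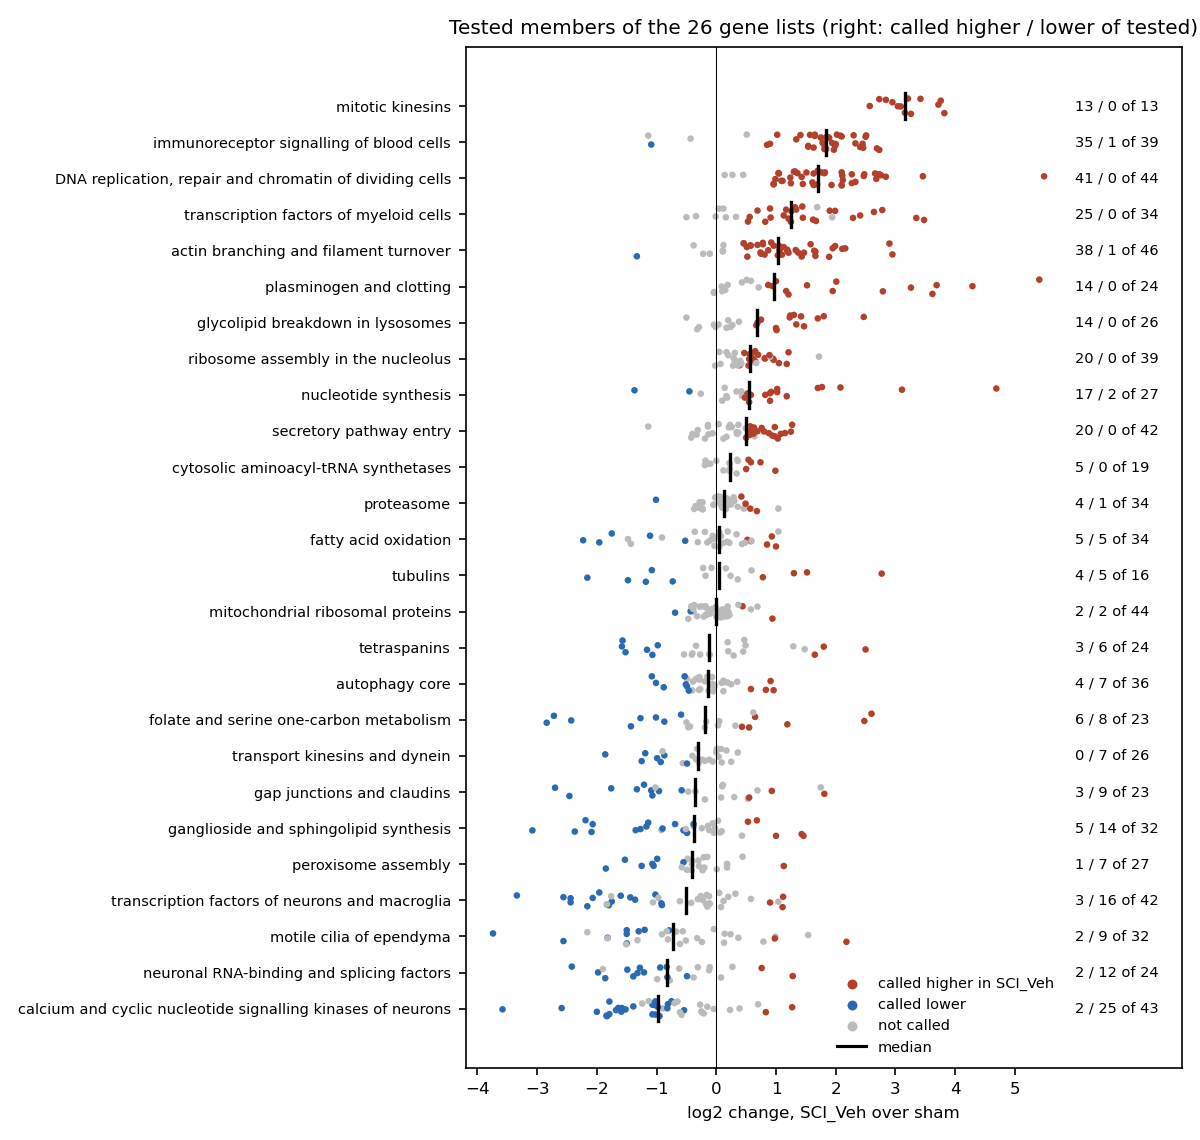
Log2 change (SCI_Veh over sham) of every tested member of the 26 gene lists, ordered by the list median (black line), with members called higher in red, called lower in blue and not called in grey; counts called higher and lower of those tested stand at the right. Mitotic kinesins (median 3.16) are at the top, mitochondrial ribosomal proteins (0.00) in the middle and calcium and cyclic nucleotide signalling genes of neurons (-0.98) at the bottom.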

How the data were processed

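RNA from rat spinal cord was extracted with TRIzol and sequenced after NEBNext Ultra library preparation, per the labels' protocols, which do not say whether strand was kept. The authors aligned reads with HISAT2 2.0.5 and counted them per gene with featureCounts 1.5.0-p3 on Rnor_6.0 (rn6), per the submitters' processing notes, which also name DESeq2 1.20.0. They deposited raw counts per gene for 9 libraries and, in a separate table, FPKM values normalised for library size and gene length. The 6 libraries compared held 14352862 to 15104944 counts, which limits precision mainly for genes near the minimum count.

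Genes with at least 10 counts in at least 3 of 9 libraries were fitted with edgeR 4.0.16 (R 4.3.3) by the quasi-likelihood test with robust dispersion and TMM factors on all 9 libraries, and the contrast was SCI_Veh over sham. All p-values called adjusted are from this test with Benjamini-Hochberg adjustment over 16760 genes, and a gene was called below 0.05. CPM of genes used TMM factors, while sums over cell type markers used library totals. Errors of log2 changes are SE and those of CPM are SD over 3 libraries. Genes at 0 in sham were given bounds against 3 counts over the group, for counting error only. Promoter windows came from RefSeq (GRCr8) and carry no coordinates of the count table's build.

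Members and lists were chosen with earlier results of these data known. The 12 genes with the largest gain and the 12 with the largest loss in CPM were taken among called genes whose groups did not overlap. The 10 transcription factors changed most in each direction also had to be called, without overlap and above a minimum mean count. The absence of overlap in these genes is therefore not a result. Also named were the 5 most abundant genes at 0 in the other group. From each of 26 lists came the 4 members of smallest p, with up to 3 called against the list's direction. The 12 symbol stems with the largest shares called gave the 3 members of smallest p each. Other named genes, the Hox genes, the families and the motifs were chosen after their values were seen. Alternatives used DESeq2 1.42.0, limma 3.58.1 on log2 of the deposited FPKM plus a pseudocount of 1 or 0.1, other scalings and filters, a replicate block, and fits without 1 library. Replicates of a group differed by more than sampling noise, with chi-square per degree of freedom of 20.6 to 67.5. Antisense and overlapping genes cannot be told apart without strand. Some genes that the naming rule selects are not reported here.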

Additional observations from a re-analysis of the deposited data

How the results depend on the processing

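The number of genes called stayed within 1.5 times the reported 6341 under all 20 alternatives, from 4775 without SCI_Veh 2 to 7064 with DESeq2 (3531 higher, 3533 lower, 35 genes without an adjusted p), and no called gene was called in the opposite direction in any of them. Among fits without 1 library, counts ranged from 4775 to 6065. Library totals in place of TMM factors gave 3550 higher and 2537 lower of 6087, and shifted the median log2 change of all genes to 0.093. limma on log2(FPKM + 1) called 6156 genes and on log2(FPKM + 0.1) called 6075. A fit on the 6 libraries alone called 5578. With mitochondrial and hemoglobin genes left out, the difference between SCI_Veh and sham in the share of counts of the 100 most abundant genes was -1.07 percentage points (reported value -4.62), that of the 10 most abundant was -2.3 (reported value -6.31) and that in effective number of genes was 376 (reported value 745), with exact permutation p of 0.4, 0.2 and 0.4; without sham 2 these differences were -2.85, -4.71 and 491. Deviations of same-numbered libraries from their group means had correlations of 0.0954, -0.0314 and 0.0533 over genes. Libraries of different number had correlations of -0.11 to 0.0441. With 3 libraries a group, these values cannot show whether same-numbered libraries were paired. A fit with a replicate block called 6220 genes (3211 higher, 3009 lower). Of 498 called members and named genes, 394 kept their call in all 20 alternatives, and none changed direction among 886 followed. Depth limits what can be said of genes near 10 counts a library.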
